A study of Mus musculus with 4 samples.

Results

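The collagen chains of the mouse array were examined in cultured CD8+ T cells and in their counterparts from the thymus. Every non-control probe whose gene name is Col, a number, a and a number was taken, which gave 78 probes of 40 genes out of 41174 probes under 27962 gene names. Of these genes 11 encode fibrillar collagens (25 probes), 8 encode basement membrane collagens (17 probes) and 21 encode other collagens (36 probes). Probes for 2 further collagens carry older names on the array (E330026B02Rik, now Col6a6, and Emid2, now Col26a1) and fall outside this rule.

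Both kinds of cells were of the C57Bl/6 strain and received no treatment beyond culture. Thymic CD8+ cells came from mice aged 4 to 5 weeks. In vitro-derived CD8+ cells were grown from 100000 sorted Lin-Sca1+CD117+ marrow cells of mice aged 6 to 8 weeks, which spent 35 days on OP9-DL1 cells with Flt3 at 5 ng/ml and IL7 at 1 ng/ml. OP9-DL1 cells are mouse stroma of marrow origin carrying Delta-like 1, a ligand of Notch, so the culture contained mesenchymal cells beside the lymphoid ones until the sort. By flow cytometry, cells positive for CD8 with much TCRbeta were collected in both cases. Each kind gave 2 RNA preps, and each thymic prep was hybridised with each in vitro prep. The result is 4 arrays: array 1 paired thymic prep 1 with in vitro prep 1, array 2 thymic prep 1 with in vitro prep 2, array 3 thymic prep 2 with in vitro prep 1, and array 4 thymic prep 2 with in vitro prep 2. Thymic RNA always carried Cy3 and in vitro-derived RNA always Cy5, so dye and donor age cannot be told apart from where the cells arose. The labels name no separate animals, so p-values measure the spread between preps, which may be technical.

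Collagens are secreted proteins whose chains wind around each other into a helix and then assemble outside the cell. Fibrillar collagens such as types I, III and V form the fibres of connective tissue, and type IV forms the sheet of the basement membrane, with types XV and XVIII at its border. The other classes make beaded filaments, anchoring fibrils, hexagonal networks or membrane-bound chains, or decorate fibrils. Fibroblasts and other mesenchymal cells are the main makers of fibrillar collagen, and lymphocytes are not known as a major source.

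The upstream sequences of 4 genes on which the results turn are shown here, namely Col1a2, Col3a1 and Col27a1, which were among the genes with the largest positive ratios, and Col23a1, which had the largest negative one. They are the 250 bases before the RefSeq start of each gene in build GRCm38.p6, written 5′ to 3′ on the plus strand, which is the strand of all 4 genes. Their positions are chr6:4505368-4505617 for Col1a2, chr1:45311288-45311537 for Col3a1, chr4:63215162-63215411 for Col27a1 and chr11:51289670-51289919 for Col23a1. Capitals mark 3 motifs, searched on both strands: the CCAAT box (ATTGG on the other strand), the GC box GGGCGG (read as CCGCCC on the other strand) and the TATA box TATAAA (read as TTTATA on the other strand).
Col1a2: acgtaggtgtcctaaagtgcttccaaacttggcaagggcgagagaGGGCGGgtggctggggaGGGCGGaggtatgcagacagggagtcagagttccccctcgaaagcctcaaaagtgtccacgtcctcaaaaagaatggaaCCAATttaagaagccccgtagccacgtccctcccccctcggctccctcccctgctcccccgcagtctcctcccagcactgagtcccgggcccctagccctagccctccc
Col3a1: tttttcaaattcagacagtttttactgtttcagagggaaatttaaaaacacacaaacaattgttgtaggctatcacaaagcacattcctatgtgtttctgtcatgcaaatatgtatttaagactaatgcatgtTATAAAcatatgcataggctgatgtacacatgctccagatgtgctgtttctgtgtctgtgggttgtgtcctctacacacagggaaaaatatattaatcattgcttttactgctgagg
Col27a1: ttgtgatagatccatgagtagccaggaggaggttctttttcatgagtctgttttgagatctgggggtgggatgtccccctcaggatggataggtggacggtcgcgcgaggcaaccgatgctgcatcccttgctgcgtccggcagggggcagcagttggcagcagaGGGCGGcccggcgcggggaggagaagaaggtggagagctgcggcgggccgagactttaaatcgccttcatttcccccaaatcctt
Col23a1: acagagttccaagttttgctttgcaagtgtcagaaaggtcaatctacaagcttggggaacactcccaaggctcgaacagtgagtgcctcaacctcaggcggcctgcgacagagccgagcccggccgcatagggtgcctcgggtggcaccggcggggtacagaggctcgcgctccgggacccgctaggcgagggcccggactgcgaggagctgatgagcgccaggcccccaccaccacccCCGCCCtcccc

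Col1a2 held 1 CCAAT at 109 bases before its start and 2 GGGCGG at 205 and 188 bases. Col3a1 held 1 TATAAA at 117 bases and neither of the other motifs. Col27a1 held 1 GGGCGG at 85 bases, and Col23a1 held 1 CCGCCC at 11 bases. RefSeq entries were matched for 32 of the 40 collagen genes. CCAAT was found in 11 of these 32 upstream windows, against 33.8% of all 32851 windows of this length, GGGCGG in 18 of 32, against 32.7%, and TATAAA in 5 of 32, against 12.4%. The motifs do not overlap each other in these 4 windows. A match only describes the letters.

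Detection came first, since many collagen probes were dim. A probe counted as well above background by the scanner software's own call, which sets the spot against the spread of the background. In the thymic (Cy3) channel 28 of the 78 collagen probes were well above background on all 4 arrays, and in the in vitro-derived (Cy5) channel 39 were. All 28 were among the 39, so 11 probes were well above background on every array in Cy5 only, and no probe was so in Cy3 only. Per array, 30 to 33 collagen probes passed in Cy3 and 42 to 46 in Cy5. Over all probes of the array the shares were closer, at 63.7% to 65.6% in Cy3 and 66.4% to 70.7% in Cy5. A further 26 collagen probes (33.3%) were well above background on no array in either channel, against 25.1% of all probes. The other 13 passed on some arrays. No collagen spot was saturated.

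Detection differed by class. Fibrillar probes passed on all 4 arrays in 12 of 25 cases in Cy3 and 17 in Cy5. Basement membrane probes passed in 5 of 17 cases in Cy3 and 7 in Cy5, and other collagens in 11 of 36 and 15. No probe passed on all 4 arrays in either channel for 13 genes. These were the fibrillar Col24a1, the type IV chains Col4a2, Col4a3 and Col4a5, and Col8a2, Col9a1, Col10a1, Col12a1, Col13a1, Col14a1, Col17a1, Col19a1 and Col28a1. Col4a2, the usual partner of Col4a1 in basement membranes, came nearest among the type IV chains, with its probes well above background in Cy5 on 3 and 2 arrays and on none in Cy3.

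In vitro-derived cells carried higher signal than thymic cells for many collagens, above all fibrillar ones. The largest ratios belonged to Col1a1 (13.1-fold), Col1a2 (7.69-fold), Col3a1 (7.40-fold) and Col27a1 (6.52-fold), all higher in in vitro-derived cells. This order changed with the processing. With Agilent's processed signals, which differ from the main fit in more than the offset, Col3a1 (log2 ratio 4.41) stood above Col1a1 (4.39). In that setting the dim probes of Col5a2 (4.00) and Col16a1 (3.40) stood above Col27a1 (3.39) and Col1a2 (3.29). Col23a1, a membrane-bound collagen, went the other way and was 5.05-fold lower. The 39 probes that passed in Cy3 or in Cy5 on every array, with no missing value, were tested with limma over the whole array (27236 probes), and a probe was called at a Benjamini-Hochberg adjusted p under 0.05. Of the 39, 23 probes of 18 genes were called higher in in vitro-derived cells, 3 probes of 2 genes were called lower and 13 were not called. Over all probes tested, 26.6% were called higher and 25.6% lower. The 11 probes seen in Cy5 only had to be brighter there, so the count carries that bias. Among the 28 probes well above background in both channels, 15 were called higher and 3 lower, against 26.3% and 26.7% of all such probes. Past 2-fold, 13 of the 39 were called higher and 1 lower, against 5.82% and 4.63% of all probes. In bulk RNA a change in the share of cells that carry a transcript cannot be told apart from a change in the amount per cell.

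The counts changed with the processing. With the background model fitted on all spots, 15 of the 39 collagen probes were called higher, and 17.4% of all probes. Without thymic prep 1 or thymic prep 2, 19 were called higher in either case, and 16.2% or 15.1% of all probes. With each array only centred on its median, 28 collagen probes were called higher, but so were 59.1% of all probes, and 83.6% of all calls were then higher, against 51.0% after loess. That centring moved the median over all tested probes to 0.37 from 0.03 (log2). The fibrillar probes lay 1.02 above that median there and 1.20 above it after loess.

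**Figure D1:**
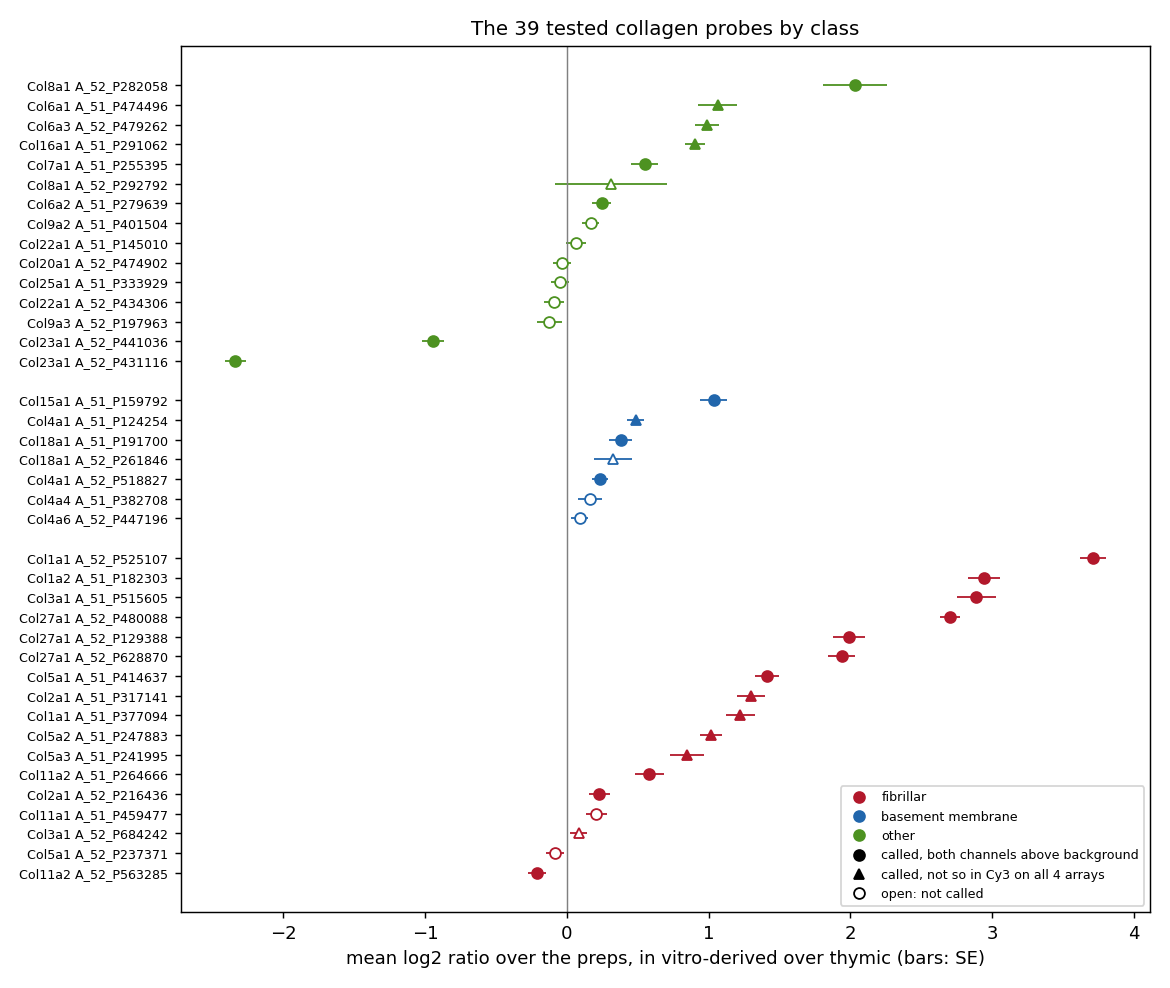
Mean log2 ratio of in vitro-derived over thymic signal (horizontal axis) for each of the 39 tested collagen probes, grouped by class, with bars for the SE of the limma fit. Filled symbols were called, open ones were not, and triangles mark probes not well above background in Cy3 on all 4 arrays; 13 of the 17 fibrillar probes are filled on the right of 0, and the probes farthest to the left are those of Col23a1.

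Fibrillar collagens were higher most often. Of their 17 tested probes 13 were called higher and 1 lower, with a median log2 ratio of 1.22 against 0.03 over all probes. Among the 12 seen in both channels, 9 were called higher, and their median lay 1.66 above that of all probes seen in both. By array, the median of the 17 was 1.05, 1.42, 1.14 and 1.24 on arrays 1 to 4. Its size depended on the processing, at 1.71 with an offset of 16, 2.62 with Agilent's processed signals or the deposited table, and 0.23 with no filter on dim probes.

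Col1a1 and Col1a2 encode the chains of type I collagen, the main collagen of bone, skin and tendon. The Col1a1 probe A_52_P525107, printed in 10 spots per array, gave log2 ratios of 3.55, 3.87, 3.64 and 3.79 on arrays 1 to 4. The SD over its 10 spots was 0.05 to 0.08 on an array, so the arrays differed from each other by more than their spots did. Its mean was 3.71 ± 0.09 (SE, 2 preps of each kind, adjusted p = 2.4e-05, limma). A second Col1a1 probe, A_51_P377094, gave 1.05, 1.47, 1.14 and 1.24, with a mean of 1.22 ± 0.10 (adjusted p = 0.00052), and was well above background in Cy3 on only 2 arrays. Its call was lost with the background model fitted on all spots (1.00, adjusted p = 0.0505). The third Col1a1 probe passed on 1 array in Cy5 only and was not tested. The Col1a2 probe A_51_P182303 gave 2.66, 3.12, 2.94 and 3.05, with a mean of 2.94 ± 0.11 (adjusted p = 5.9e-05). Every array was far from 0 for both chains, and the lowest array in each case was array 1.

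Col3a1 encodes type III collagen, which accompanies type I in soft tissue. Its probe A_51_P515605 gave 2.59, 3.11, 2.80 and 3.06 on arrays 1 to 4, with a mean of 2.89 ± 0.14 (adjusted p = 0.00010). Col27a1 encodes a fibrillar collagen known from cartilage, and it was the only gene with 3 tested probes. They gave 2.77, 2.64, 2.76 and 2.64 (A_52_P480088, mean 2.70 ± 0.07, adjusted p = 2.6e-05), 2.13, 1.83, 2.16 and 1.84 (A_52_P129388, mean 1.99 ± 0.11, adjusted p = 0.00017) and 1.84, 1.83, 2.16 and 1.91 (A_52_P628870, mean 1.94 ± 0.09, adjusted p = 0.00011). All 12 values were above 1.8, and the probes differed from each other by less than 1 log2 unit.

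The minor fibrillar collagens followed at smaller ratios. Type V collagen starts and limits fibril growth. Its Col5a1 probe A_51_P414637 gave 1.32, 1.42, 1.32 and 1.58, with a mean of 1.41 ± 0.08 (adjusted p = 0.00020). Col5a2 gave 0.93, 1.13, 0.93 and 1.08 and was well above background in Cy3 on no array, so its difference is given as at least 2.02-fold (adjusted p = 0.00044). Such limits come from single-channel values and are open to dye bias. They are not bounds over the other settings, left-out preps included. There the log2 ratio went as low as 0.82 for Col5a2 (1.02 in the main fit) and 0.87 for Col6a1 (1.06). For Col6a3 it went as low as 0.80 (0.99) and for Col16a1 0.68 (0.90). Col5a3 had a mean of 0.85 ± 0.12 (adjusted p = 0.0030), a call lost in 1 of 16 other settings, and was well above background in Cy3 on 1 array. Col2a1, the cartilage collagen, gave 1.15, 1.47, 1.18 and 1.39 at the 10-spot probe A_51_P317141, with a mean of 1.30 ± 0.10 (adjusted p = 0.00041). In Cy3 only 1 to 5 of its spots were well above background on an array. Col11a1, a chain of the cartilage fibril collagen XI, had a mean of 0.21 ± 0.07 and was not called (adjusted p = 0.066).

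**Figure D2:**
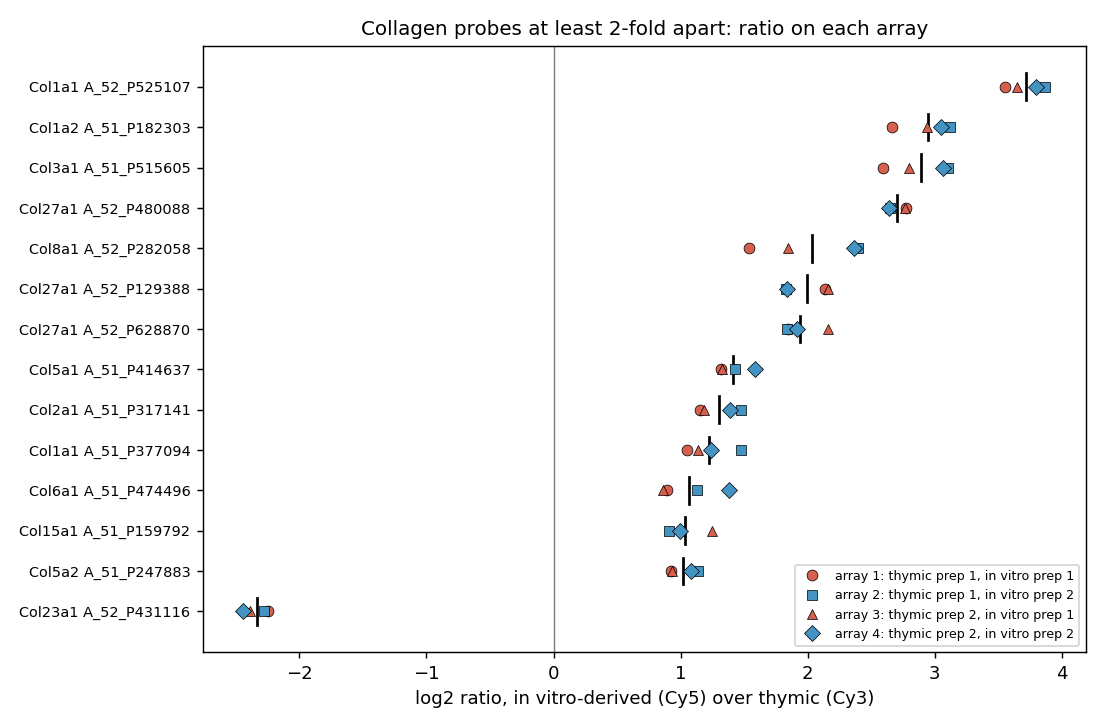
Log2 ratio of in vitro-derived (Cy5) over thymic (Cy3) signal on each of the 4 arrays for the 14 tested collagen probes whose mean differed at least 2-fold, with a bar at the mean. Red symbols are arrays with in vitro prep 1 and blue symbols arrays with in vitro prep 2; every probe keeps its sign on all 4 arrays, from 3.55 to 3.87 for Col1a1 A_52_P525107 to -2.24 to -2.44 for Col23a1 A_52_P431116.

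Basement membrane collagens differed little. Of their 7 tested probes 4 were called higher and none lower by limma, with a median of 0.32. This median was 0.49 with an offset of 16, 0.64 with processed signals, 0.58 with median centring and 0.15 with no filter on dim probes. None of the 7 had a negative mean, and those not called ranged from 0.09 to 0.32. The brightest, Col4a4 (an α chain of kidney, lung and inner ear basement membranes), gave 0.09, 0.30, 0.05 and 0.22 on arrays 1 to 4, with a mean of 0.16 ± 0.08 (adjusted p = 0.16). It was not called. Col4a1, the common chain of type IV, had means of 0.49 ± 0.06 (adjusted p = 0.0017) and 0.23 ± 0.06 (adjusted p = 0.023) at its probes. The first of these was not above background in Cy3 on any array, and the difference there was at least 1.29-fold. Both Col4a1 calls were lost without thymic prep 1 (adjusted p = 0.056 and 0.28), without thymic prep 2 (0.074 and 0.19), and with array 1 (0.080 and 0.083) or array 4 (0.11 and 0.12) filled in from the other 3 arrays. Col4a6 had a mean of 0.09 ± 0.06 and was not called (adjusted p = 0.26).

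The exception in size was Col15a1, which links basement membranes to the fibrils around them. It gave 1.00, 0.91, 1.25 and 0.99 on arrays 1 to 4, with a mean of 1.04 ± 0.09 (adjusted p = 0.00070). The 4 values did not come near 0. A second Col15a1 probe, A_52_P170882, was dim, well above background in Cy5 on 1 array and in Cy3 on none, and was not tested. It gave 0.08, 0.20, 0.25 and 0.25. Col18a1, from whose chain the fragment endostatin is cut, had means of 0.38 ± 0.08 (adjusted p = 0.013) and 0.32 ± 0.13 (adjusted p = 0.099) at its probes, and only the first was called. That call was lost with the background model fitted on all spots (adjusted p = 0.11), without thymic prep 2 (0.15) and without in vitro prep 2 (0.055).

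The other collagens were mixed. Of 15 tested probes 6 were called higher, 2 lower and 7 were not called, with a median of 0.17. Among the 11 of them seen in both channels, 3 were called higher and 2 lower, and the median was -0.03. The median of 0.17 fell to 0.0036 with no filter on dim probes, 0.012 without thymic prep 1, 0.10 without in vitro prep 1 and 0.05 without array 2 or array 3. Type VI collagen forms beaded filaments around many cells, and all of its 3 tested chains were called higher. Col6a1 gave 0.89, 1.13, 0.86 and 1.38 and was 2.09-fold higher in mean (adjusted p = 0.0022), and Col6a3 was at least 1.98-fold higher (adjusted p = 0.00052). Neither was well above background in Cy3 on any array. Col6a2 was, and its mean was 0.25 ± 0.07 (adjusted p = 0.032), a call lost in 9 of 17 other settings. The Col6a3 call was lost with the background model fitted on all spots (adjusted p = 0.059).

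Col8a1, a short-chain collagen of vessel walls and the cornea, gave 1.54, 2.40, 1.84 and 2.36 at the probe A_52_P282058, with a mean of 2.04 ± 0.23 (adjusted p = 0.0013). Both arrays with in vitro prep 2 were above both arrays with prep 1. Col16a1, which decorates fibrils, was at least 1.86-fold higher (adjusted p = 0.00039) and was not well above background in Cy3 on any array. This call was lost in 1 of 16 other settings, and the second Col16a1 probe was well above background on no array. Col7a1, the collagen of the anchoring fibrils of skin, was the brightest tested probe of this class. It gave 0.68, 0.46, 0.67 and 0.39, with a mean of 0.55 ± 0.10 (adjusted p = 0.0065). Probes of Col9a2, Col9a3, Col20a1, Col22a1 and Col25a1 had means between -0.12 and 0.17 and were not called.

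Col23a1, a membrane-bound collagen whose outer part can be shed, was the only collagen gene more than 2-fold lower in in vitro-derived cells. Its probe A_52_P431116 gave -2.24, -2.28, -2.39 and -2.44 on arrays 1 to 4, with a mean of -2.34 ± 0.08 (adjusted p = 4.0e-05). The 4 arrays lay close together. A second probe, A_52_P441036, gave -0.88, -0.88, -1.13 and -0.88, with a mean of -0.94 ± 0.08 (adjusted p = 0.00054). The third Col23a1 probe was well above background on no array. The other membrane-bound collagens of the array were not called (Col25a1) or not tested (Col13a1, Col17a1).

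Raw brightness shows how much of each ratio rests on dim thymic signal. Mean signal minus local background was 77.9 to 91.8 units in Cy3 and 3736 to 4743 in Cy5 for Col1a1 A_52_P525107. For Col3a1 A_51_P515605 it was 36.0 to 41.4 in Cy3 and 1152 to 1729 in Cy5. Col23a1 A_52_P431116 was the reverse, with 458 to 515 in Cy3 and 155 to 199 in Cy5. Cy5 was the brighter dye before normalization, as Col4a6 shows, with 310.3 to 328 in Cy3, 829 to 918 in Cy5 and a normalized ratio of 0.09. An offset of 50 was added to every background-corrected signal, which draws ratios of dim probes towards 0. With an offset of 16, Col1a1 A_52_P525107 rose to 4.06 and Col3a1 A_51_P515605 to 3.43. With Agilent's processed signals, which carry no offset and were also background-corrected and normalized in another way, they were 4.39 and 4.41.

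Probes of the same gene often disagreed in size. Of the 27 genes with a tested probe 11 had more than 1. Col11a2, a chain of collagen XI, had probes called in opposite directions, with means of 0.58 ± 0.10 (A_51_P264666, adjusted p = 0.0064) and -0.21 ± 0.06 (A_52_P563285, adjusted p = 0.036). The second call was lost in 10 of 17 other settings. Col3a1 and Col5a1 each had a probe near 0 beside the one called, at 0.08 ± 0.06 (A_52_P684242) and -0.09 ± 0.06 (A_52_P237371). Col2a1 A_52_P216436 had 0.23 ± 0.07 (adjusted p = 0.0496), a call lost in 11 of 17 other settings.

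The second Col8a1 probe, A_52_P292792, gave 0.68, 1.01, 0.64 and -1.07, with a mean of 0.31 ± 0.40 (adjusted p = 0.55). Array 4 alone was negative. Its Cy3 signal minus background was 167 there and 8.89 to 13.0 on the other arrays, while Cy5 was 73.6 to 142 on all 4. With array 4 replaced by the value that the other 3 arrays give in an additive model, its ratio was 0.82 (adjusted p = 0.0031).

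**Figure D3:**
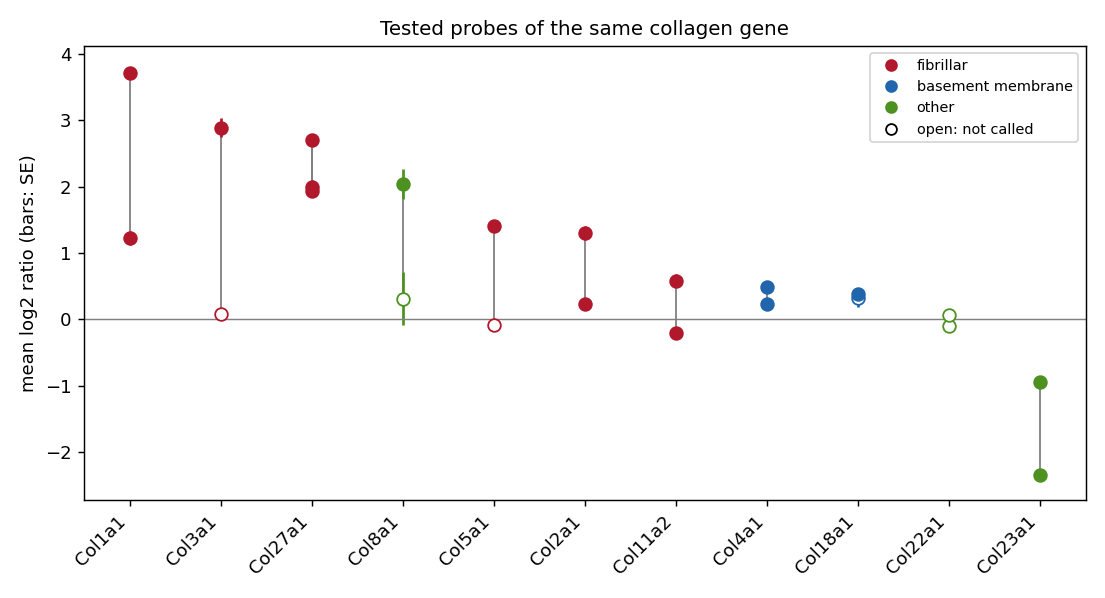
Mean log2 ratio (vertical axis, bars are the SE of the limma fit) of each tested probe for the 11 collagen genes with more than 1, joined by a line per gene. Col3a1 spans 2.89 to 0.08 and Col5a1 1.41 to -0.09, and Col11a2 crosses 0 from 0.58 to -0.21.

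Position along the gene was compared through the array's own coordinates, as the genomic distance from the probe nearest the 3′ end, introns included. In 23 genes with several placed probes, the 3′-most probe was tested in 14 cases, and 13 of the 30 probes farther upstream were tested. Of 8 such genes with more than 1 tested probe, the largest absolute ratio was at the 3′-most probe in 6. For Col3a1 the 3′-most probe gave 2.89 and the probe 27228 bases away 0.08. The far Col3a1 probe was dim, well above background in Cy3 on no array and at 43.0 to 60.3 units in Cy5, so the offset of 50 draws its ratio towards 0. For Col5a1 the values were 1.41 and, 48285 bases away, -0.09. The far Col5a1 probe was dim too, at 34.1 to 49.2 units in Cy3 and 66.3 to 84.4 in Cy5, so the offset also draws its ratio towards 0. Col27a1 kept 1.94 at 41877 bases. Col8a1 and Col23a1 ran the other way, with 2.04 at 2562 bases and -2.34 at 2505 bases from their 3′-most probes. What sets this pattern was not tested.

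The in vitro preps were then compared with each other. Only 1 prep stands on each side, so there is no test, and the difference is given with each thymic prep as partner. No collagen probe differed by 1.5-fold or more the same way with both partners in the ratios, against 0.481% (prep 1 higher) and 0.507% (prep 2 higher) of all tested probes. By any size, 19 of the 39 probes were higher in prep 2 with both partners, 10 were higher in prep 1 and 10 were mixed, against 40.4% and 36.7% of all probes.

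By class, 9 of the 17 tested fibrillar probes were higher in prep 2 with both partners and 6 in prep 1. The counts were 3 and 1 of 7 basement membrane probes and 7 and 3 of 15 others. Every called probe of types I, III, V, VI and VIII was higher in in vitro prep 2 with both partners, a grouping that was not planned. The called probes Col2a1 A_51_P317141 (0.32 and 0.21) and Col18a1 A_51_P191700 (0.26 and 0.08) also were. Some of these differences were close to 0, at 0.01 for Col6a3 with thymic prep 2 and 0.02 for Col6a2 with thymic prep 1 (log2). Col8a1 A_52_P282058 was higher there by 0.86 with thymic prep 1 and by 0.52 with thymic prep 2 (log2), and the second of these is just under 1.5-fold. It passed 1.5-fold with both partners in Cy5 channel values after Aquantile normalization (0.76 and 0.63). Col3a1 A_51_P515605 was higher by 0.52 and 0.26, Col6a1 by 0.24 and 0.52, and Col1a2 A_51_P182303 by 0.46 and 0.12. For Col1a1 A_52_P525107 the values were 0.32 and 0.15. Against thymic cells, Col3a1 thus stood at 2.69 in prep 1 and 3.08 in prep 2.

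The called probes of Col27a1, Col7a1 and Col15a1 and both of Col11a2 were higher in prep 1 with both partners. Col27a1 A_52_P129388 was 0.30 and 0.32 higher in prep 1, Col11a2 A_51_P264666 was 0.19 and 0.32 higher, and Col7a1 was 0.22 and 0.27 higher. The lower ratio of Col23a1 A_52_P431116 was alike in both preps, at -2.31 and -2.36. Of the 13 probes called at least 2-fold higher than thymic cells, 9 were higher in prep 2 with both partners and 4, the 3 of Col27a1 and the 1 of Col15a1, in prep 1. The same split over all probes called at least 2-fold higher was not counted, so these numbers only describe the 13 probes.

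Between the thymic preps no collagen probe differed by 1.5-fold the same way with both in vitro partners, against 0.213% and 0.0220% of all probes. By any size 6 were higher in thymic prep 1 and 11 in thymic prep 2, against 29.5% and 35.0% of all probes.

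**Figure D4:**
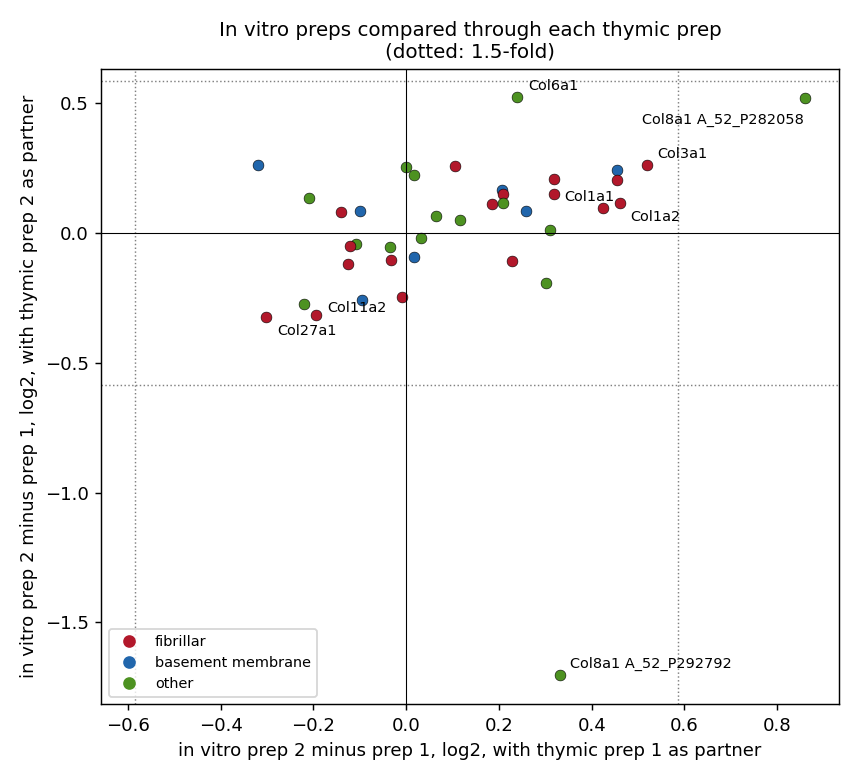
In vitro prep 2 minus prep 1 (log2) with thymic prep 1 (horizontal axis) and thymic prep 2 (vertical axis) as partner for each of the 39 tested collagen probes, coloured by class, with dotted lines at 1.5-fold. Col3a1, Col1a2, Col1a1, Col6a1 and Col8a1 A_52_P282058 lie to the upper right, Col27a1 and Col11a2 to the lower left, and Col8a1 A_52_P292792 falls at the bottom because of its value on array 4.

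Genes that make, process, bind or break down collagen were taken from lists, each gene by its brightest tested probe. By this rule 26.7% of all genes tested were called higher and 25.3% lower. As with the collagens, a gene that passed only through Cy5 had to be brighter there, so the counts among genes seen in both channels are given too. Of 18 genes for folding and modification 15 were tested, with 5 called higher, 4 lower and a median of -0.0002. Of the 13 seen in both channels 3 were higher and 4 lower. P4ha2, a catalytic subunit of prolyl 4-hydroxylase, gave 3.27, 2.88, 3.45 and 2.92 on arrays 1 to 4, with a mean of 3.13 ± 0.16 (adjusted p = 0.00012). P4ha1, its alternative subunit, gave -1.49, -1.50, -1.52 and -1.46, with a mean of -1.50 ± 0.06 (adjusted p = 6.1e-05). The subunits thus went opposite ways on every array. Unlike the type I and III chains, P4ha2 was higher in in vitro prep 1, by 0.39 and 0.54. P4hb, the shared partner subunit, had a mean of -0.01 ± 0.09 (adjusted p = 0.93) and was not called.

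Serpinh1, the collagen chaperone HSP47, gave 2.35, 2.68, 2.55 and 2.75, with a mean of 2.58 ± 0.11 (adjusted p = 7.7e-05), and was well above background in Cy3 on 3 arrays. P3h3 was 3.80-fold higher in mean (adjusted p = 0.00014) and was well above background in Cy3 on no array. Its partner P3h4 was 2.33-fold lower (adjusted p = 0.00028). Plod2, a lysyl hydroxylase, had a mean of 0.60 ± 0.08 (adjusted p = 0.0023). With median centring 10 of the 15 genes were called higher, amid the general shift described above.

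Of 12 genes on the array for propeptide processing and cross-linking 7 were tested, with 5 called higher and none lower by limma, and a median of 0.31. Only 3 of the 7 were seen in both channels, of which 1 (Pcolce) was called higher, with a median of 0.05. The other 4 calls passed the filter through Cy5 only. Pcolce, which enhances removal of the C-propeptide, gave 1.22, 1.65, 1.35 and 1.67, with a mean of 1.47 ± 0.13 (adjusted p = 0.00067). Lox and Loxl1, which oxidise lysines for cross-links, were at least 2.19-fold (adjusted p = 0.0018) and at least 1.82-fold higher (adjusted p = 0.00061). Adamts2 and Adamts3, which remove N-propeptides, were called at 0.31 and 0.28. The other tested probe was not called for Adamts2 and was called higher for Adamts3. Loxl2 was not called, nor was the brighter probe of Bmp1, whose other tested probe was called higher.

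Among 10 collagen receptor genes 7 were tested, with 3 called higher and 2 lower and a median of 0.17. Of the 5 seen in both channels 1 was higher and 2 lower. Itga11, a collagen-binding integrin chain of fibroblasts, had a mean of 0.76 ± 0.08 (adjusted p = 0.00093) and Ddr2, a receptor kinase for fibrillar collagen, 0.40 ± 0.08 (adjusted p = 0.011). Mrc2, which takes up collagen, was at least 1.18-fold higher. Itga10 and Ddr1 were lower by -0.38 and -0.37. Of 11 degradation genes 7 were tested, with 3 higher (Mmp2, Timp1, Ctsk) and 2 lower (Timp2, Fap). Of the 4 seen in both channels 1 was higher and 2 lower. Timp2, a metalloproteinase inhibitor, had the largest difference there, with a mean of -1.52 ± 0.10 (adjusted p = 0.00026). The other 2 tested probes of Timp1 were not called. The collagenase genes Mmp1a, Mmp8 and Mmp13 were not tested.

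**Figure D5:**
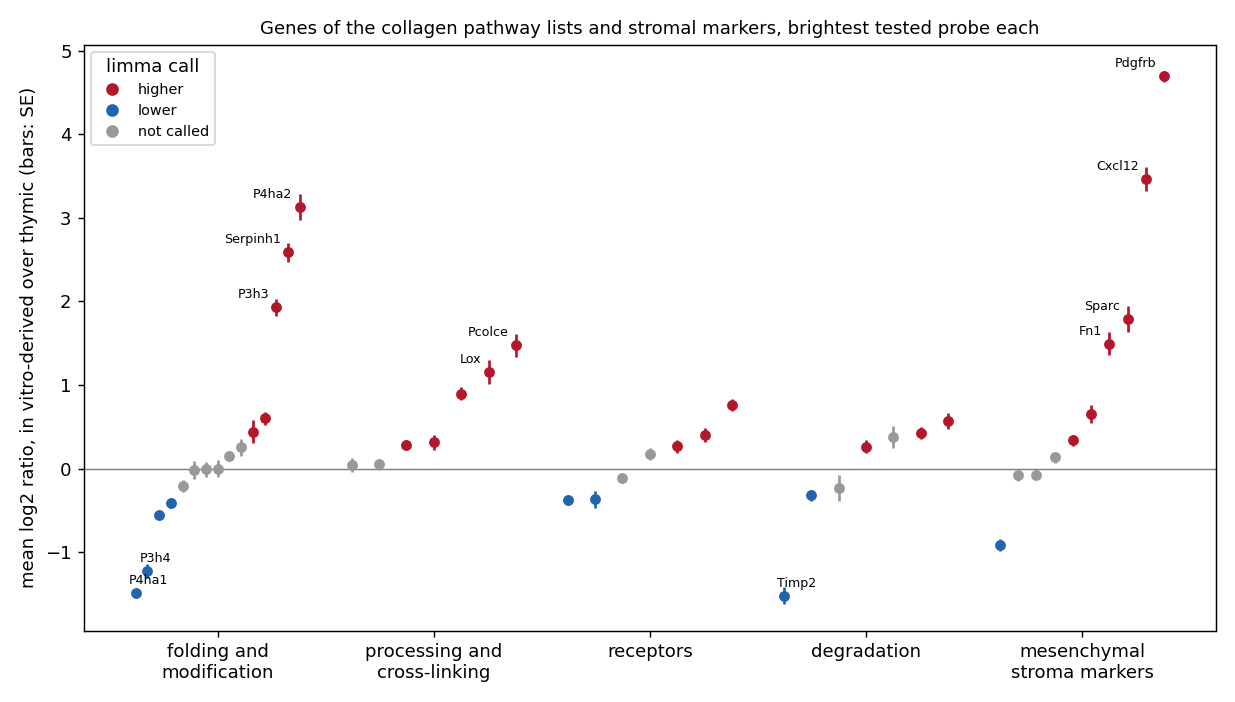
Mean log2 ratio (vertical axis, bars are the SE of the limma fit) of each tested gene of the 4 collagen pathway lists and of the mesenchymal stroma markers, each by its brightest tested probe, coloured by call. P4ha2 (3.13) and Serpinh1 (2.58) stand highest in folding with P4ha1 (-1.50) lowest, and Pdgfrb (4.69) and Cxcl12 (3.46) stand highest among the stroma markers.

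Markers of other cells moved with the collagens in part. Of 14 mesenchymal stroma markers 10 were tested, with 6 called higher in in vitro-derived cells and 1 lower, and a median of 0.49. Of the 6 seen in both channels 3 were called higher and 1 lower, with a median of 0.23, and Cxcl12, Fn1 and Postn passed through Cy5 only. Pdgfrb, a growth factor receptor of mesenchymal cells, gave 4.62, 4.68, 4.74 and 4.72 on arrays 1 to 4, with a mean of 4.69 ± 0.06 (adjusted p = 1.4e-05). Cxcl12, a stromal chemokine, had a mean of 3.46 ± 0.14, and Sparc, a collagen-binding matrix protein, 1.79 ± 0.16. Fn1, fibronectin, was 2.81-fold higher in mean and well above background in Cy3 on no array. Acta2, smooth muscle actin, was lower at -0.91 ± 0.07, while another of its probes was called higher. Pdgfra and Twist1 were well above background on no array in either channel, Dcn on 1 array in Cy3 and Lum on 1 in Cy5.

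The summed level of the stroma list, on a linear scale after normalization, was 30407 and 31064 in the thymic preps and 25518 and 26210 in the in vitro preps. The bright probe of Acta2 held 75.4% of the thymic sum and 47.5% of the in vitro sum. Between the in vitro preps, 5 of the 10 tested stroma markers were higher in prep 2 with both partners and 2 (Acta2 and Tagln) in prep 1. Over all tested probes these shares were 40.4% and 36.7%. Of the 5, Sparc (0.53 and 0.34), Cxcl12 (0.54 and 0.31) and Fn1 (0.43 and 0.36) differed most, while Pdgfrb differed by 0.06 and -0.02. All 7 CD8 T cell markers were higher in prep 1 with both partners, against 36.7% of all tested probes. The differences ran from 0.03 for Cd2 to 0.65 for Cd8b1 on average. The part of stromal cells in the collagen values was not tested.

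Thymic epithelium had 0 higher and 1 lower of 6 genes tested by limma, with summed levels of 3102 and 3275 in thymic and 3266 and 2902 in in vitro preps. Endothelium had 1 higher and 0 lower of 4 (1210 and 1230, against 1376 and 1327). Macrophages and dendritic cells had 1 higher and 2 lower of 5 (1173 and 1178, against 998 and 979). B cells had 0 higher and 1 lower of 5 (3409 and 3431, against 2849 and 2525). Single probes carried much of these sums. In thymic preps Ccl25 held 64.9% for epithelium, Pecam1 61.5% for endothelium, Lyz2 32.6% for macrophages and dendritic cells and Cd79b 84.4% for B cells. The sums, like that of the stroma list, set Cy5 against Cy3 and include any genes of a list that were not tested. CD8 T cell markers, of which only Cd8a and Cd8b1 encode a marker of the sort, were well above background in both channels on all arrays for 7 of 7 genes. Of these 1 was called higher and 5 lower after loess, whereas median centring gave 6 higher and 0 lower.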

How the data were processed

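Per the labels' protocols, RNA was isolated in Trizol, amplified from 1 ug of total RNA and hybridised to 2-colour Agilent arrays. The authors deposited 4 scanner files holding spot intensity values on a linear scale, with calls of detection per spot, written per the file headers by version 9.5.1.1 of Agilent's Feature Extraction. In the authors' series table each value is Cy5 over Cy3 as a log10 ratio, and 99.6% of them equalled the scanner's own within 0.0001. All 4 arrays lay on 1 slide. No genome build is named for the array's coordinates, and none of them is printed.

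Here intensities were corrected in limma 3.58.1 (R 4.3.3) by normexp with an offset of 50, leaving out 133 to 187 marked spots per array first, and normalized by loess. That order of steps was a choice made with the data in view. Spots of a probe were averaged. The 4 ratios gave 4 prep values, tested with lmFit and eBayes (2 residual and 3.19 prior degrees of freedom) over 27236 probes. An exact permutation of 2 against 2 preps cannot go below p = 0.333. Limits ("at least N-fold") set the bright channel after Aquantile normalization against, per array, the higher of the lowest signal well above background and the dim probe's own. Where the dim probe's own signal was the higher, as for Col6a1, P3h3 and Fn1, the limit equals the measured ratio. For these genes the mean ratio is given without "at least". The number of arrays limits the precision.

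Array values were given for tested collagen probes at least 2-fold apart and the brightest of each class, up to 6 called genes per list, and members on which a result turns. The members, classes and lists were chosen with earlier results of these data known. RefSeq accessions matched 57 of the 78 probes, all with the same symbol. The fit was tested on simulated data. Alternatives covered background correction, normalization, filters, probe choice, and each array or prep left out.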

Additional observations from a re-analysis of the deposited data

Results flagged for a closer look

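Among the 39 tested collagen probes, 2 had an array far from the other 3, and chance alone marks about 1 in 20. Col23a1 A_52_P441036 had -1.13 on array 3 and -0.88 on each of the others. Col4a6 A_52_P447196 had 0.16 on array 3 and 0.06 to 0.08 on the others, and was not called.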

How the results depend on the processing

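Of the 26 called collagen probes all 26 kept their sign under every alternative run, and 16 kept their call in each. The settings are not all separate checks. Aquantile after loess leaves the ratios unchanged (14223 of all probes called, as in the main fit). The deposited series values nearly repeat Agilent's processed signals (13700 and 13699 called). Collagen probes called higher numbered 15 with the background model fitted on all spots, and 15 with both channels well above background, whether refitted on those probes or counted from the same fit (added after seeing the data). Leaving out an array or prep gave 19 to 25 higher and 2 to 3 lower, and 8124 to 14067 of all probes called, the lowest without thymic prep 2 (8713 without thymic prep 1). With 1 prep left in an arm, that prep is assumed to vary like the others, and a left-out array is filled in from the other 3 by an additive model. Over genes rather than probes, 1 collagen gene was called lower. In vitro prep 1 and prep 2 were past 1.5-fold at 1 collagen probe with the model fitted on all spots (Col8a1 A_52_P282058), 1 with Agilent's processed signals (Col18a1 A_52_P261846) and 1 in Cy5 channel values (Col8a1 A_52_P282058), and 29 had the same sign by any size (added after seeing the data). Median centring called 10 folding genes higher. The cause of these changes was not tested.

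Signs changed at 5 probes that were not called. These were Col20a1 (0.33 with median centring, where it was called at adjusted p = 0.0097, 0.00027 without thymic prep 2, 0.0058 without in vitro prep 2, leave-one-out range -0.069 to 0.0058), Col25a1 A_51_P333929 (0.14 with median centring), Col9a3 (0.10 with median centring), Col3a1 A_52_P684242 (-0.14 with median centring, -0.00044 without array 2 or 3, range -0.00044 to 0.17) and Col8a1 A_52_P292792 (-0.20 without array 2 or 3, -0.22 without thymic prep 1, -0.03 without in vitro prep 1, range -0.22 to 0.84). Collagen probes passing on all 4 arrays numbered 41 in Cy3 and 54 in Cy5 by the call of positive and significant signal (46 to 54 per array in Cy3, against 30 to 33), and 31 and 44 where at least 2 arrays sufficed. No paired analysis was possible because the arrays form 1 group of ratios, in which each prep already enters as a unit. Signal over background limits the ratios of probes that are dim in thymic cells.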
